A study of Mus musculus with 4 samples.

Results

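The interferon response genes were followed in mammary gland RNA of mice that differed in a PPARd transgene and in diet. The list holds 37 genes known to respond to interferons, set by gene name. All probe sets that the platform table assigns to a listed symbol were taken, which gave 46 probe sets for 34 of the 37 genes, out of 12394 genes measured in all. Ifi44 and Xaf1 had no listed probe set. The probe set for Isg15 is listed for several genes and was not used.

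The tissue came from female nulliparous mice on the FVB background, and the age was not given beyond being matched between genotypes. The 4 groups were MMTV-PPARd mice on chow with GW501516, MMTV-PPARd mice on standard chow, wild-type littermates on chow with GW501516, and wild-type littermates on standard chow. GW501516 is a synthetic compound that activates PPARδ, a nuclear receptor for fatty acids, and it was fed for 1 week. The labels disagree on its content in the chow, with 0.005% in the protocol and 0.001% in the treatment field. The transgene is driven by the promoter of mouse mammary tumour virus, which is active mainly in mammary epithelium and is also known to be active in salivary gland and lymphoid cells. RNA of 5 mice was pooled per group, and each pool was hybridised to 1 Affymetrix array, so no difference below has a replicate check, a test or an error of its own.

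Interferons are secreted proteins that warn cells of infection. Type I interferons and interferon γ bind separate receptors whose Janus kinases activate STAT proteins. The first signal acts largely through a complex with IRF9 at interferon-stimulated response elements, and the second through STAT dimers at gamma-activated sites. The induced genes include antiviral effectors, GTPases that attack intracellular pathogens, and the machinery that cuts and carries peptides for MHC class I. Immune cells in a tissue contribute to such transcripts along with epithelium and stroma, and in bulk RNA fewer cells of a type and less RNA per cell cannot be told apart.

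The deposited values are probe set intensities on a linear scale, and each gene was read from its probe set with the highest mean. A floor of 20.5, the 25th percentile over the 4 arrays, replaced any lower intensity before the log2 step. A filter then kept 7836 genes with at least 1 array at or above the overall median of 139, among them 31 of the 34 measured members. Mx1, Mx2 and Stat2 did not pass, and Oasl1, Oasl2, Oas2 and Ido1 passed through 1 array only. Of the 31, 26 reached 139 on all 4 arrays. The array of MMTV-PPARd mice on chow stood apart in its control transcripts, with the hybridisation control BioB at 32.4 against 438.1 to 519.0 on the others and Gapdh at 2986 against 7171 to 10826. The hybridisation controls BioC and CreX were lower there by less. BioC was at 746.3 against 1024.6 to 1245.7, and CreX at 7134.5 against 9717.4 to 11058.1. No replicate of that group exists, so the comparisons that use this array cannot be repeated without it. Ppard was read at 4224 and 1943 in transgenic mice on GW501516 and on chow, and below the floor in both wild-type pools. The labelled tissue carried epithelial transcripts in every pool: 12 luminal markers summed to 39108 and 34701 in transgenic mice, and 26103 and 22814 in wild type on GW501516 and on chow, although Esr1 was below the floor throughout.

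Some promoters of the list carry 1 or both of the 2 motifs by which interferons are known to act. Sequences of 7 promoters of the list are shown because their genes represent the patterns described below. Promoter windows of 300 bases, 250 before and 50 after an annotated start, were available from RefSeq (GRCm38.p6) for 30 of the 37 genes, in 35 windows. The response element core, written GAAA, any 2 bases and GAAA again and searched on both strands, was found in 12 windows (34.3%), against 3.44% of all 32851 windows in the table. The gamma-activated site TTCNNNGAA, which reads the same on both strands, was found in 8 windows (22.9%), against 8.30% of all. Either motif was found in 17 of the 35 windows (48.6%, against 11.3% of all) and both in 3 (8.57%, against 0.454% of all). Overlapping matches were all counted, as for the 2 cores of Gbp3 and for the core and gamma-activated site of Bst2. In the sequences, written 5′ to 3′ on the strand of the gene, capitals mark the motif matches.
Ifit1, chr19:34640639-34640938, plus strand: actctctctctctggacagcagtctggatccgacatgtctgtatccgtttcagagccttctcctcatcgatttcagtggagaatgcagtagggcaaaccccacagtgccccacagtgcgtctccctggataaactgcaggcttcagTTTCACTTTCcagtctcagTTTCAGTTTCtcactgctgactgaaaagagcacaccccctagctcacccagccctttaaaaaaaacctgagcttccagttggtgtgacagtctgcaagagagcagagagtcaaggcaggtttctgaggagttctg
Gbp3, chr3:142559794-142560093, plus strand: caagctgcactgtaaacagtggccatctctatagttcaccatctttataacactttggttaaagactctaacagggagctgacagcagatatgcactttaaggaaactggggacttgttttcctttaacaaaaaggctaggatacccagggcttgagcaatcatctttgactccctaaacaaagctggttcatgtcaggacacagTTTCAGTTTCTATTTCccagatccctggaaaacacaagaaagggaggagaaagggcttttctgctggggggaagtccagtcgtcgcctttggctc
Igtp, chr11:58199306-58199605, plus strand: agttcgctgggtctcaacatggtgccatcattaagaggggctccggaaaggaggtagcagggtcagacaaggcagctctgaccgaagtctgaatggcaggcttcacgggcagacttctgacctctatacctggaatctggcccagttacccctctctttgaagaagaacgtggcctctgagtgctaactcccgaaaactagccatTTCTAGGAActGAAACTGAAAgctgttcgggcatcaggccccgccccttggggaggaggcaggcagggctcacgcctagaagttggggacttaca
Irf1, chr11:53769764-53770063, plus strand: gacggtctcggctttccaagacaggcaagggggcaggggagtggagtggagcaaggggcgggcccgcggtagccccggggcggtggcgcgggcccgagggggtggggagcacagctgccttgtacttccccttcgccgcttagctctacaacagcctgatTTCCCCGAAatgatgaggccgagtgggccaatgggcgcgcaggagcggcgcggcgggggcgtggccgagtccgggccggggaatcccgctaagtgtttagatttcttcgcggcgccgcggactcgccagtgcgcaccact
Irf8, chr8:120736108-120736407, plus strand: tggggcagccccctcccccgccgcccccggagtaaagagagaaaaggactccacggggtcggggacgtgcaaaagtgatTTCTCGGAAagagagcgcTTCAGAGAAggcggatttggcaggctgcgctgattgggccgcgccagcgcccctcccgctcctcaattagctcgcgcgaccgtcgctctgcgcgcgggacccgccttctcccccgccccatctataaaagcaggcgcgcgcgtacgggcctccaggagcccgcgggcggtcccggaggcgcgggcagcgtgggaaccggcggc
Psmb8, chr17:34197945-34198244, plus strand: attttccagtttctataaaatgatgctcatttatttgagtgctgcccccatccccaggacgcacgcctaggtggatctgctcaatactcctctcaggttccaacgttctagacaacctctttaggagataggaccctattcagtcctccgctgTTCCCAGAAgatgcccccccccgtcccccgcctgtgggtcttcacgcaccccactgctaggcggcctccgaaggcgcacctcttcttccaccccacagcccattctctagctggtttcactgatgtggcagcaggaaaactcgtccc
Tap1, chr17:34187306-34187605, plus strand: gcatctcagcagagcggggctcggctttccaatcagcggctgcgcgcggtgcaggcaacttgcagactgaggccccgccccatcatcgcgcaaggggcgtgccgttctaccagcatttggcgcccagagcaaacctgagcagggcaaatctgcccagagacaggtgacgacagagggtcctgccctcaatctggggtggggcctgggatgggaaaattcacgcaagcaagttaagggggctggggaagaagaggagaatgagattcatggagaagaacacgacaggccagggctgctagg
Ifit1 held 2 response element cores, 104 and 85 bases before the start at their far ends, and no gamma-activated site. Irf8 held 2 gamma-activated sites and no core, and Irf1 and Psmb8 held 1 gamma-activated site each. Igtp held 1 of each motif, next to one another. Tap1 and Psmb9 are neighbours that are read in opposite directions, and their windows share 275 bases, in which neither motif was found. A match is a description of the letters only.

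**Figure D1:**
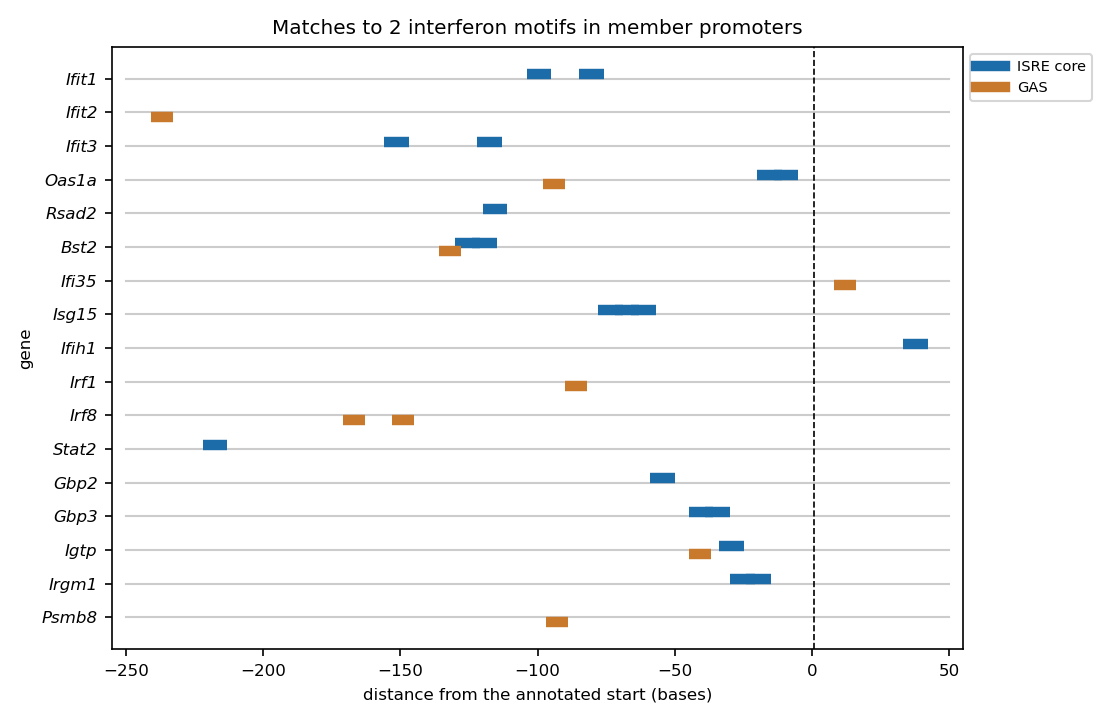
Positions of the response element core (ISRE core, blue) and the gamma-activated site (GAS, orange) in the promoter windows of the 17 members that hold a match; the horizontal axis is the distance in bases from the annotated start (dashed line) and each grey line is 1 window's extent. Matches lie mostly within the first 150 bases before the start, with Ifi35 and Ifih1 after it and Ifit2 and Stat2 beyond 200 bases before it.

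Laid over the 4 arrays, the members differed mainly by diet and by the wild-type chow pool. In all, 14 of the 31 members had both GW501516 pools below both chow pools (45.2%), against 21.3% of all genes that passed the filter, and 0 had both GW501516 pools above both chow pools, against 15.3% of all genes. These 14 were Oasl1, Bst2, Irf1, Irf8, Irf9, Gbp3, Igtp, Irgm1, Psmb8, Psmb9, Psmb10, Tap1, Ifi30 and Ubd. Oasl1 passed the filter through wild type on chow alone, and Ubd through the 2 chow pools alone, so their entry favoured this order. The wild-type chow pool was the highest of the 4 for 17 of the 31 members (54.8%), against 25.4% of all genes. Oasl1, Oasl2 and Ido1 are among these 17 and passed the filter through that pool alone, so their place in the count was fixed by their entry. The wild-type chow pool was at least 1.5-fold above each other pool for 4 members (Oasl1, Usp18, Irf8 and Ido1), against 3.42% of all genes. Oasl1 and Ido1 passed the filter through that pool alone, and a second probe set of Irf8 does not share the order (216.5 in wild type on chow, beside 223.8 in transgenic mice on chow), so the count is not read further. The corresponding counts were 3 for transgenic mice on chow (Gbp3, Iigp1 and Ubd), against 3.52% of all genes, 1 for wild type on GW501516 (Oas2, which passed the filter through that pool alone), against 0.778%, and 0 for transgenic mice on GW501516, against 2%. No pool was at least 1.5-fold below each other pool for any member (0 of 31), against 1.45% and 2.74% of all genes for transgenic mice on GW501516 and on chow, and 0.651% and 2.71% for wild type on GW501516 and on chow. Genotype alone separated fewer of them: 5 members were higher in both transgenic pools than in both wild-type pools, against 20.9% of all genes, and 4 were lower, against 18% of all.

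**Figure D2:**
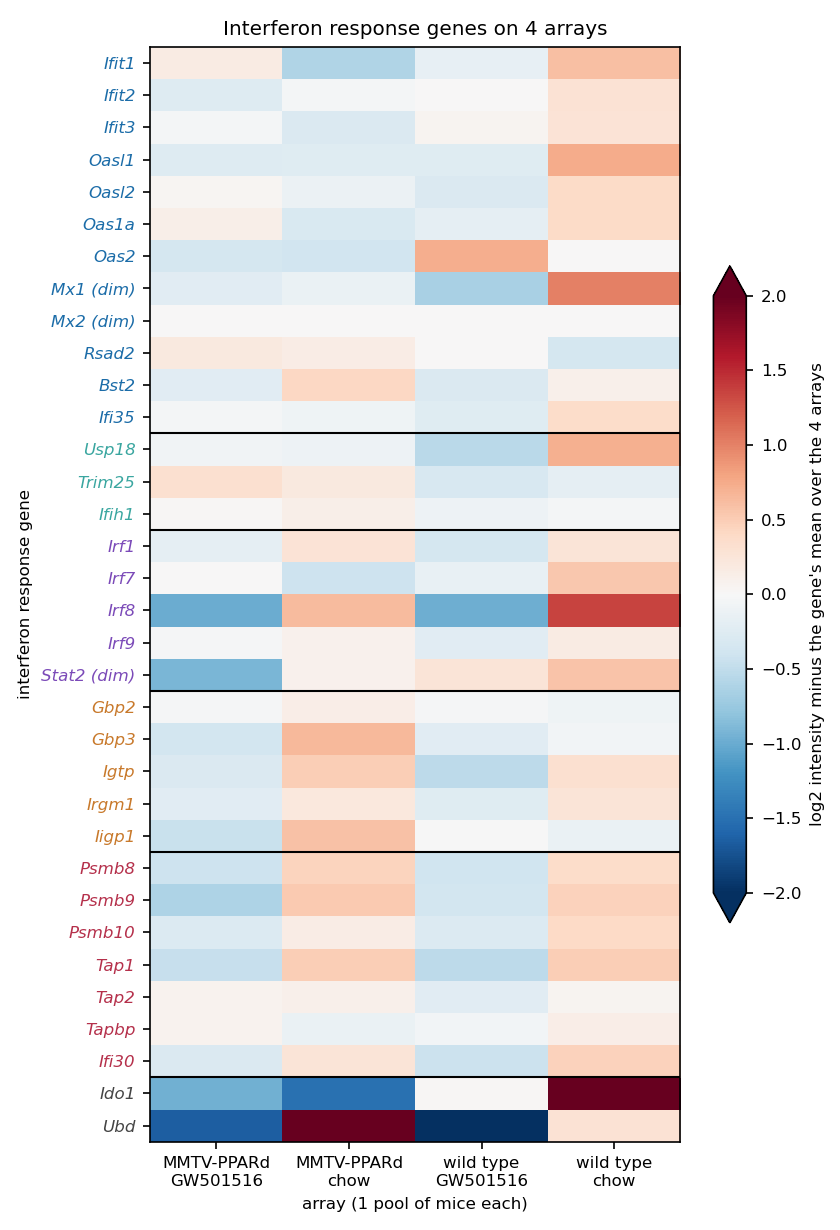
Heat map of the 34 measured members (rows, coloured by role) on the 4 arrays (columns, 1 pool of mice each). Colour gives the log2 intensity, after the floor, minus the gene's mean over the arrays; "dim" marks the 3 members that did not pass the filter. Irf8 and most antigen processing genes are red in both chow columns and blue in both GW501516 columns, while Ubd is highest in MMTV-PPARd on chow and Ido1 in wild type on chow.

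In wild-type mice most members were lower on the agonist. Of the 31 members, 5 were at least 2-fold lower on GW501516, against 3.25% of all genes, and 0 were at least 2-fold higher, against 3.18% of all genes. The median log2 difference of the members was -0.60, beside -0.037 over all 7836 genes, and 27 of 31 members lay below 0 (87.1%, against 54.9% of all genes). The 5 were Ido1, Irf8, Ubd, Usp18 and Tap1. The count was 4 with the mean over a gene's probe sets, where Tap1 was not kept because its 3 other probe sets lie below the floor. Without the filter, 6 of 34 were at least 2-fold lower, against 3.18% of 12394 genes, with Mx1 added. Ido1, Oasl1 and Oasl2 passed the filter through wild type on chow alone, so a value below 0 was fixed by their entry. Ubd passed through the 2 chow pools alone, so its entry also favoured a value below 0. For Oas2, which passed through wild type on GW501516 alone, a value above 0 was fixed.

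In transgenic mice the same agonist gave a smaller shift of the list. On GW501516, 5 of 31 members were at least 2-fold lower than on chow, against 4.07% of all genes, and 0 at least 2-fold higher, against 3.99% of all. The median was -0.12, beside -0.034 over all genes, with 19 of 31 below 0 (61.3%), near the 53.1% of all genes. The 5 were Ubd, Irf8, Psmb9, Iigp1 and Gbp3. Of the 31 members 2, Ubd and Irf8, were at least 2-fold lower on GW501516 in both genotypes (6.45%, against 1.53% of all genes). Ubd passed the filter through the 2 chow pools alone, so its entry favoured a lower value on GW501516 in both genotypes. Gbp3, at 2.002-fold, lies at the threshold, and with the arrays shifted to one median the count was 3, without Gbp3 and Iigp1.

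Between genotypes, the median of the list lay near 0 on both diets, and differences of at least 2-fold were in single genes. Roles went different ways on chow. The 10 antiviral effectors that passed the filter had a median of -0.47, with 8 below 0 (80%, against 48.0% of all genes). The 4 transcription factors had -0.40, with 3 below 0. The 5 GTPases had 0.22, with 4 above 0. The 3 genes of the ISG15 system and RNA sensing had 0.15, and the 7 antigen processing genes -0.01. On chow 1 of 31 members, Ubd, was at least 2-fold higher in transgenic mice, against 5.46% of all genes, and 2, Ido1 and Ifit1, were at least 2-fold lower, against 3.71% of all. The median was -0.074, beside 0.020 over all genes. When arrays were brought to one median, or quantile normalized, 4 members were at least 2-fold lower, with Irf7 and Oasl1 added. On GW501516 0 members reached 2-fold higher in transgenic mice, against 2.82% of all genes, and 1, Oas2, was at least 2-fold lower, against 1.19% of all. The median there was 0.12, beside 0.0016 over all genes. Ido1, Oasl1 and Oasl2 passed the filter through wild type on chow alone, which fixed their values for the transgene on chow below 0. Oas2 passed through wild type on GW501516 alone, which fixed its value for the transgene on GW501516 below 0. Each of these 4 comparisons shares 1 pool with 2 of the others, so their values are given side by side and not as support for one another. Transgenic mice on GW501516 were also set against wild type on chow. This comparison shares 1 pool with each of those 4, so it is no support for them either. It had 4 members at least 2-fold lower (Ido1, Irf8, Ubd and Psmb9), against 4.21% of all genes, and 0 at least 2-fold higher, against 5.5% of all genes. Its median was -0.43. For Ido1, Oasl1 and Oasl2, which passed the filter through wild type on chow alone, a value below 0 was fixed in this comparison too. Ubd passed through the 2 chow pools alone, so its entry favoured a value below 0.

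**Figure D3:**
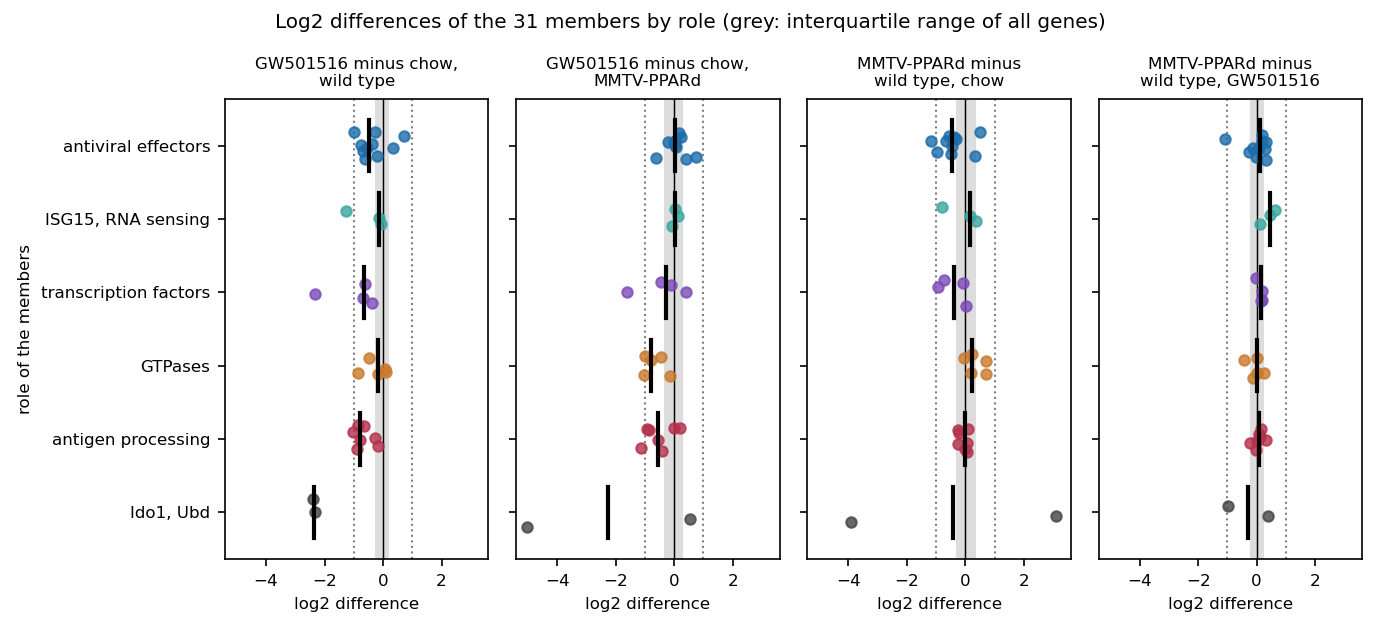
Log2 differences of the 31 members that passed the filter (points), by role (rows), in the 4 comparisons that differ in 1 factor (panels). Black bars are medians of a role, the grey band is the interquartile range of all 7836 genes, and dotted lines mark 2-fold; the points of antigen processing lie left of 0 in the wild-type GW501516 panel and around 0 in both transgene panels.

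Antiviral effectors, the genes that block viral RNA, translation or budding, were mostly highest in the wild-type chow pool. Ifit1, which binds foreign RNA caps, read 243.5 and 143.9 in transgenic mice on GW501516 and on chow, and 193.6 and 329.2 in wild type on GW501516 and on chow. It was 1.70-fold lower on GW501516 in wild type, 1.69-fold higher on GW501516 in transgenic mice, and 2.29-fold lower in transgenic than in wild-type mice on chow. The agonist differences of Ifit1 thus had opposite signs in the 2 genotypes. Wild type on chow was the highest pool and transgenic mice on chow the lowest. Its relatives Ifit2 and Ifit3 varied less, by 1.46-fold and 1.48-fold between the lowest and the highest pool, and were also highest in wild type on chow.

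The 2′-5′ oligoadenylate synthetase family detects double-stranded RNA, with Oas1a and Oas2 as members and Oasl1 and Oasl2 as related proteins. Oas1a read 662.6 and 495.7 in transgenic mice on GW501516 and on chow, and 537.7 and 795.2 in wild type on GW501516 and on chow. Oasl1 read 91.4 and 92.9 in the transgenic pools and 92.6 in wild type on GW501516, against 182.6 in wild type on chow, so that 3 pools were nearly equal and 1 stood above them. Oasl2 was also highest in wild type on chow, with 167.2 there and 104.6 to 131.5 in the other pools. Oas2 departed from its family: it read 75.5 and 74.0 in the transgenic pools, and 159.6 and 97.4 in wild type on GW501516 and on chow. It passed the filter through the pool of wild type on GW501516 alone, and was 2.11-fold lower in transgenic than in wild-type mice on GW501516.

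Other effectors had smaller ranges. Bst2, tetherin, which holds budding virus at the cell surface, read 718.2 on GW501516 and 1117 on chow in transgenic mice, and 687.4 and 898.2 in wild type, so both chow pools were above both GW501516 pools. Ifi35 was highest in wild type on chow at 696.6, with 459.1 to 526.0 in the other pools. Rsad2 (viperin), which makes a chain-terminating nucleotide, had both transgenic pools above both wild-type pools, with 379.2 and 366.9 in the transgenic pools and 331.5 and 260.9 in wild type on GW501516 and on chow. Its 2 dimmer probe sets did not share this, with log2 differences of -0.36 and -0.07 for GW501516 in wild type where the kept one had 0.35. Of the 10 effectors that passed the filter, 8 were below 0 on GW501516 in wild type (median -0.48) and 3 in transgenic mice (median 0.04), where 54.9% and 53.1% of all genes lay below 0. Oasl1 and Oasl2 passed the filter through wild type on chow alone, which fixed them below 0 in wild type. Oas2 passed through wild type on GW501516 alone, which fixed it above 0 there.

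The Mx genes encode dynamin-like GTPases against influenza and other viruses, and the C57BL/6J annotation lists both as transcribed pseudogenes. Mx1 was dim on all arrays, at 29.9 and 32.2 in the transgenic pools, and 22.5 and 70.4 in wild type on GW501516 and on chow. Mx1 was 3.13-fold lower on GW501516 in wild type, and the wild-type chow pool was again the highest. Mx2 was below the floor or at it on every array, and no fold is given.

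The ISG15 system attaches a ubiquitin-like protein to targets, and Usp18 removes it and also dampens the type I receptor. Usp18 read 275.7 and 271.1 in transgenic mice on GW501516 and on chow, and 198.8 and 476.4 in wild type on GW501516 and on chow. It was 2.40-fold lower on GW501516 in wild type and differed by 1.02-fold in transgenic mice. On chow it was 1.76-fold lower in transgenic than in wild-type mice, and on GW501516 1.39-fold higher. Ifih1 (MDA5), a sensor of long double-stranded RNA, stayed between 523.3 and 608.4 on all arrays, the smallest range of the 31 members. Trim25, a ubiquitin ligase of the RIG-I pathway, read 1897 and 1740 in transgenic mice on GW501516 and on chow, and 1224 and 1343 in wild type. Both transgenic pools were thus above both wild-type pools, and all 3 Trim25 probe sets had this order.

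Among the transcription factors, Irf8 had the largest difference. IRF8 directs the development of macrophages, dendritic cells and B cells and is also inducible by interferon γ. Irf8 read 141.9 on GW501516 and 436.7 on chow in transgenic mice, and 142.7 on GW501516 and 717.7 on chow in wild type. It was 3.08-fold lower on GW501516 in transgenic mice and 5.03-fold lower in wild type, and the 2 GW501516 pools were within 1.01-fold of each other. Its second probe set, 1.39-fold higher in transgenic than in wild-type mice on GW501516, had log2 differences of -1.24 and -1.66 in the same comparisons. For the transgene on chow the kept probe set gave -0.72 and the second 0.05, so no difference between the chow pools is drawn from Irf8.

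Irf7, which amplifies type I interferon production, behaved more like Ifit1 and Usp18. It read 198.7 and 148.7 in transgenic mice on GW501516 and on chow, and 179.1 and 287.9 in wild type on GW501516 and on chow, with the highest value again in wild type on chow. Irf1, an early target of interferon γ, read 762.9 on GW501516 and 1049 on chow in transgenic mice, and 678.4 and 1031 in wild type. The chow pools of Irf1 were within 1.02-fold of each other, and GW501516 was 1.37-fold and 1.52-fold lower in transgenic and wild-type mice. Irf9, the DNA-binding part of the type I complex, ranged from 323.2 to 422.4. Its partner Stat2 was dim, at 21.7 to 61.1, and its 2 probe sets went opposite ways in transgenic mice (-1.01 and 0.78), so it is not described further.

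**Figure D4:**
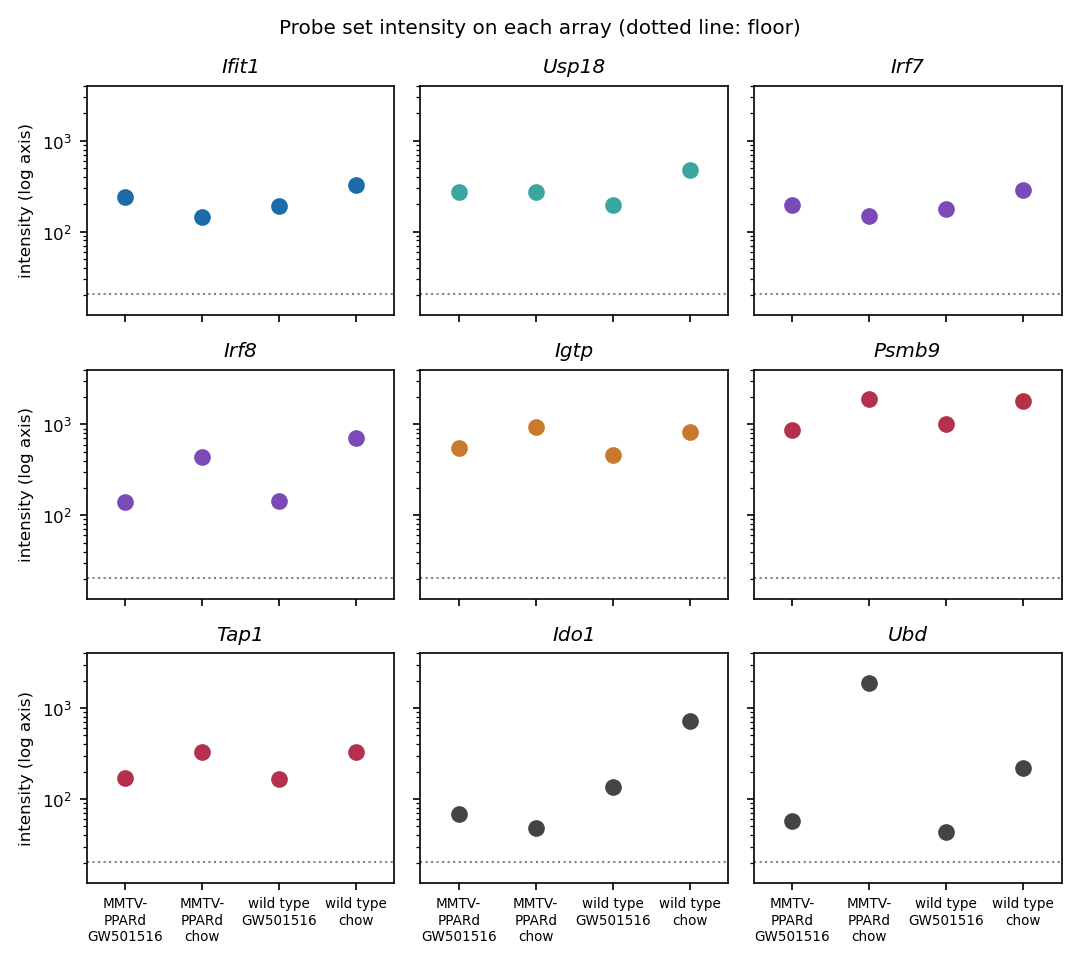
Probe set intensity (vertical log axis) of 9 members on the 4 arrays (1 point per array, horizontal axis), with the floor of 20.5 as a dotted line. Irf8, Igtp, Psmb9 and Tap1 are lower in both GW501516 pools than in both chow pools, Ifit1, Usp18, Irf7 and Ido1 are highest in wild type on chow, and Ubd peaks in MMTV-PPARd on chow at 1864.

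The interferon-inducible GTPases, which attack the vacuoles of intracellular pathogens, are typical targets of interferon γ. Igtp (Irgm3) read 550.4 on GW501516 and 944.3 on chow in transgenic mice, and 464.6 and 833.6 in wild type. It was 1.72-fold and 1.79-fold lower on GW501516 in the 2 genotypes. Irgm1 had the same split by diet, at 383.7 and 520.5 in transgenic mice and 382.3 and 536.0 in wild type on GW501516 and on chow. All of these differences are below 2-fold.

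Gbp3 and Iigp1 formed a second group within the GTPases, with the transgenic chow pool apart. Gbp3 read 323.4 on GW501516 and 647.6 on chow in transgenic mice, and 355.8 and 399.5 in wild type. Iigp1 (Irga6) read 1091 and 2224 in transgenic mice, and 1469 and 1357 in wild type on GW501516 and on chow, and its second probe set gave a log2 difference of -1.35 for GW501516 in transgenic mice beside -1.03. In both genes the kept probe set was at least 1.5-fold higher in transgenic mice on chow than in every other pool, by 1.62-fold for Gbp3 and 1.51-fold for Iigp1. The second probe set of Iigp1 gave 1.46-fold. That pool is the one with the low control transcripts, whose part in these values was not tested. Gbp2, which lies near Gbp3 on chromosome 3 with 1 protein-coding gene between them, ranged from 1382 to 1614, by 1.17-fold.

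Antigen processing genes largely shared one order of the pools. Psmb8, Psmb9 and Psmb10 are the catalytic subunits that turn the standard proteasome into the immunoproteasome. Psmb9 read 862.7 on GW501516 and 1905 on chow in transgenic mice, and 1021 and 1826 in wild type. It was 2.21-fold lower on GW501516 in transgenic mice and 1.79-fold lower in wild type, while the chow pools were within 1.04-fold of each other. Psmb8 read 1558 and 2858 in transgenic mice on GW501516 and on chow, and 1575 and 2707 in wild type. Psmb10 read 1045 and 1405 in transgenic mice, and 1048 and 1658 in wild type. In all 3 subunits both GW501516 pools were below both chow pools, and the 2 GW501516 pools were within 1.18-fold of each other.

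The standard subunits that these replace did not share the order in both genotypes. Psmb5, Psmb6 and Psmb7 had log2 differences for GW501516 of -0.04, -0.02 and -0.29 in wild type and of 0.10, 0.17 and 1.38 in transgenic mice. The 1.38 of Psmb7 rests on 565.7 in transgenic mice on chow, against 880.7 to 1474 in the other pools. Psme1, a subunit of the interferon-inducible proteasome activator, had -0.34 and -0.13.

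Tap1 and Tap2 form the pump that carries peptides into the endoplasmic reticulum. Tap1 read 171.2 on GW501516 and 329.0 on chow in transgenic mice, and 163.9 and 331.3 in wild type, which is 1.92-fold and 2.02-fold lower on GW501516. The 2 chow pools of Tap1 were within 1.01-fold of each other, the closest of the 31 members. Its 3 other probe sets were below the floor on all arrays and give no second reading. Psmb9, Tap1, Psmb8 and Tap2 lie next to one another on chromosome 17 with no other protein-coding gene between them. Tap2 nevertheless read 738.9 and 751.0 in transgenic mice, and 595.6 and 727.2 in wild type on GW501516 and on chow, with a log2 difference of -0.02 in transgenic mice. Tapbp (tapasin), which bridges TAP to MHC class I, ranged from 2171 to 2607. Ifi30 (GILT), a lysosomal reductase for MHC class II antigens, read 1478 and 2173 in transgenic mice, and 1348 and 2509 in wild type on GW501516 and on chow.

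The measured genes that make and load MHC class I itself had no difference of 2-fold. Of 8 measured genes of an MHC class I list of 11 (B2m, H2-K1 and H2-D1 among them), 0 were at least 2-fold higher or lower in any of the 4 comparisons that differ in 1 factor. Of all genes, 1.19% to 5.46% were, by comparison and direction, so 0 of 8 is near these shares. The medians of the 8 were -0.05 and -0.01 for GW501516 in wild type and in transgenic mice, beside -0.037 and -0.034 over all genes.

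Ido1 and Ubd had the widest ranges of the list and opposite chow values. Ido1 encodes indoleamine 2,3-dioxygenase, which breaks down tryptophan and restrains T cells. It read 68.1 and 47.4 in transgenic mice on GW501516 and on chow, and 135.9 and 718.3 in wild type on GW501516 and on chow. Only the wild-type chow pool passed the filter. Ido1 was 5.29-fold lower on GW501516 in wild type and 15.2-fold lower in transgenic than in wild-type mice on chow, and 1.44-fold higher on GW501516 in transgenic mice. On GW501516 it was 1.996-fold lower in transgenic than in wild-type mice.

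Ubd (FAT10), a ubiquitin-like tag for the proteasome that mature dendritic cells and B cells express, was highest where Ido1 was lowest. It read 57.1 on GW501516 and 1864 on chow in transgenic mice, and 43.8 and 217.2 in wild type. Ubd was 32.6-fold lower on GW501516 in transgenic mice, 4.96-fold lower in wild type, and 8.58-fold higher in transgenic than in wild-type mice on chow. The GW501516 pools differed by 1.30-fold. With a floor at the 40th percentile, which lies above both of those pools, the Ubd difference in wild type was -1.61 on the log2 scale beside -2.31.

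**Figure D5:**
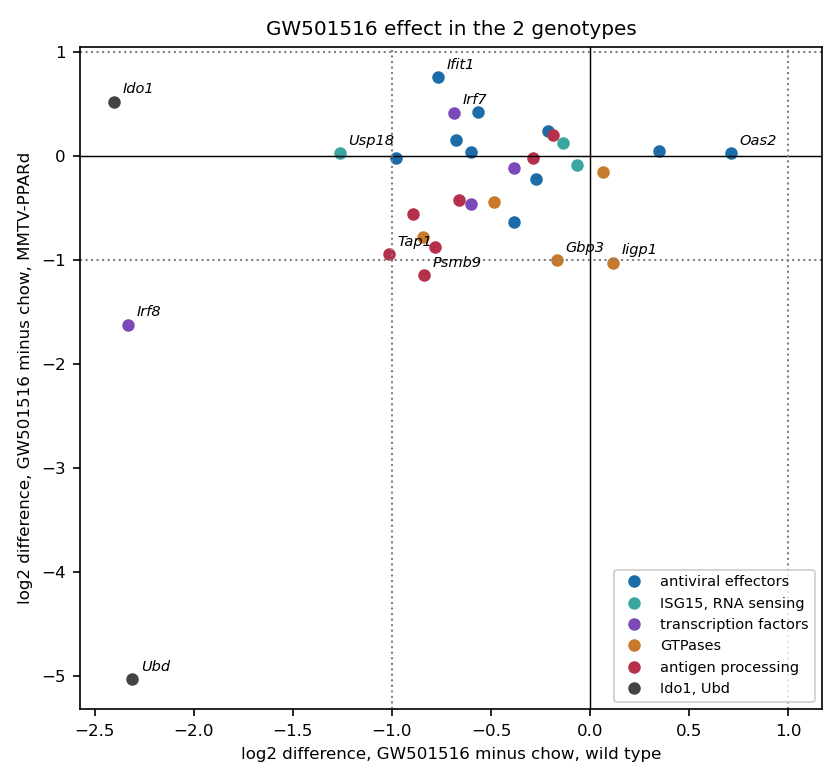
Log2 difference for GW501516 against chow in MMTV-PPARd mice (vertical axis) and in wild type (horizontal axis) for the 31 members, coloured by role, with dotted lines at 2-fold. Irf8 and all antigen processing genes but Tapbp lie at the lower left, while Ifit1, Irf7, Usp18 and Ido1 are below 0 in wild type and above 0 in MMTV-PPARd mice.

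Set side by side, the agonist's differences in the 2 genotypes, which share no pool, were both below 0 for 17 members (54.8%, against 32.4% of all genes) and both above 0 for 2 (6.45%, against 24.2%). They were of opposite sign for 12 (38.7%), near the 43.1% of all genes. Entry through the filter bears on these counts. Ubd passed through the 2 chow pools alone, which favoured values below 0 in both genotypes. Oasl1, Oasl2 and Ido1 passed through wild type on chow alone, which fixed them below 0 in wild type. Oas2 passed through wild type on GW501516 alone, which fixed it above 0 there. Pearson's r over the 31 members was 0.45 and Spearman's rho 0.19, against 0.51 and 0.22 over all 7836 genes, and without Ubd r was 0.17. Members share their arrays and are not replicates, so this is a description only. The difference between the 2 agonist effects was at least 2-fold and positive for Ido1, Ifit1, Usp18 and Irf7, 4 of 31 against 4.43% of all genes. Of these, Ido1 passed the filter through wild type on chow alone, so its entry favoured a positive difference. The difference was at least 2-fold and negative for Ubd and Iigp1, 2 of 31 against 5.25% of all genes.

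Ligands of the pathway were below the floor, and few of its signalling parts differed by 2-fold. The 4 measured of 7 interferon genes (Ifnb1, Ifna2, Ifna4 and Ifng) were below the floor on all 4 arrays. Of 14 measured receptors, kinases and negative regulators 13 passed the filter, and 0 differed by at least 2-fold on GW501516 in either genotype. Of all genes, 3.18% were higher and 3.25% lower in wild type, and 3.99% and 4.07% in transgenic mice, so 0 of 13 is near these shares. The medians of the 13 were -0.22 in wild type and -0.12 in transgenic mice, beside -0.037 and -0.034 over all genes. Socs3, a feedback inhibitor of cytokine signalling, was the 1 gene of these 13 past 2-fold for the transgene, at 264.8 in transgenic and 582.9 in wild-type mice on GW501516. Of all genes, 1.19% were at least 2-fold lower in that comparison.

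A further list of 45 interferon-stimulated genes, of which 32 were measured and 26 passed the filter, had 4 genes at least 2-fold lower and 0 higher on GW501516 in each genotype, where 3.25% and 4.07% of all genes were lower in wild type and in transgenic mice. Its medians were -0.36 in wild type and -0.29 in transgenic mice, with 24 and 16 of 26 below 0, beside 54.9% and 53.1% of all genes. Cxcl9, a chemokine induced by interferon γ that draws T cells, read 250.6 on GW501516 and 999.8 on chow in transgenic mice, and 187.6 and 538.3 in wild type. Ifi47, a GTPase of the family of Igtp, read 465.6 and 953.9 in transgenic mice, and 384.3 and 963.2 in wild type on GW501516 and on chow. In both genes the GW501516 pools were below the chow pools, as in Igtp and Psmb9. Cmpk2, a mitochondrial nucleotide kinase that is the direct neighbour of Rsad2 on chromosome 12, read 315.0 and 177.0 in transgenic mice, and 128.5 and 100.3 in wild type on GW501516 and on chow. Cmpk2 and the kept probe set of Rsad2 thus shared the order of the 4 pools.

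Markers of immune cells also differed between the pools, in an order that was not the same for all cell types. The summed intensity of 13 measured T cell markers was 508.6 on GW501516 and 2039 on chow in transgenic mice, and 572.3 and 6122 in wild type. Zap70 went against the other T cell markers, at 273.9 and 223.4 in transgenic mice, and 339.3 and 208.9 in wild type on GW501516 and on chow. Without it the sums were 234.7 and 1815 in transgenic mice, and 233.0 and 5913 in wild type. For 9 B cell markers the sums were 166.6 and 1590 in transgenic mice, and 222.3 and 3057 in wild type. Of the T cell markers 8 and 7 were below the floor on GW501516 in transgenic and wild-type mice, among them Cd8b1 and Cd5, and Cd4 was below it on all arrays. Of the B cell markers 6 and 5 were below the floor there, with Pax5 below it on all arrays. Sums for 6 dendritic cell markers were 290.9 and 669.9 in transgenic mice, and 329.7 and 901.0 in wild type on GW501516 and on chow. Without Ccr7, which T cells also express, they were 288.3 and 554.0 in transgenic mice, and 325.7 and 470.0 in wild type. Sums for 8 NK cell markers were 337.3 and 869.5 in transgenic mice, and 416.3 and 966.8 in wild type. Among them Gzmb went the other way in wild type, at 40.3 on GW501516 and 29.6 on chow. Only 3 of these 8, and 3 of the 6 dendritic cell markers, passed the filter. The 12 macrophage markers, all above the floor everywhere, summed to 24499 and 22472 in transgenic mice, and 26872 and 31693 in wild type. Within this list Lyz2 and Mpeg1 departed from the sum and had both GW501516 pools below both chow pools. Lyz2 read 4970 and 6784 in transgenic mice, and 5721 and 9675 in wild type on GW501516 and on chow. Mpeg1 read 466.3 and 970.7, and 478.0 and 698.1. Thus the T cell, B cell, NK cell and dendritic cell sums had both GW501516 pools below both chow pools, as Irf8 did, and the macrophage sum did not. Plasma cell markers (6 measured) summed to 13419 and 21123 in transgenic mice, and 9083 and 10407 in wild type on GW501516 and on chow. Among them Jchain, the joining chain of secreted antibodies, read 5161 in transgenic mice on chow and 68.9 to 227.0 in the other pools. Igha and Prdm1 were also highest in that pool, as Ubd, Gbp3 and Iigp1 were. The other plasma cell markers were not. Ighm and Tnfrsf17 were highest in wild type on chow, at 1418 and 36.7. Xbp1 was highest in transgenic mice on GW501516, at 11282 against 7848 to 8609 in the other pools. Neutrophil markers (6 measured) summed to 552.3 and 459.5 in transgenic mice, and 217.7 and 561.8 in wild type. Muscle markers summed to 102967 and 30611 in transgenic mice, and 107325 and 14093 in wild type, the opposite order. The part of these markers in the differences of the interferon response genes was not tested.

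Both motifs occurred in members with and without the diet order. Of the 14 members with both GW501516 pools below both chow pools, all with a window, 4 held a response element core and 5 a gamma-activated site, and 7 held either. Of the other 17 members, 12 had a window, of which 6 held a core, 3 a gamma-activated site and 8 either. These counts are small and are given as a description.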

How the data were processed

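Biotin-labelled cRNA from pooled mammary gland RNA was hybridised to 4 Affymetrix arrays of 22690 probe sets, per the labels' protocols. The authors deposited 1 linear intensity per probe set and array. Its mean without the lowest and highest 2% of values was 499.95 to 499.96 on every array, as scaling each array to one trimmed mean would give. The software and summarisation method are not given in the sources used here.

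Gene symbols came from the platform annotation and were updated by gene ID to RefSeq (GRCm38.p6): 20393 probe sets had 1 symbol, of which 20364 were matched by gene ID, 691 had several and named no gene, and 1606 were not listed. For each gene the probe set with the highest mean was kept. A floor at the 25th percentile (20.5) and a filter at the 50th (139, on at least 1 array) were used, and log2 differences were taken between pools. A difference was counted from 2-fold. With 1 array per group no test was possible, and the number of arrays limits the precision. To gauge scatter between probes, each kept probe set was compared with the median of the gene's other probe sets that passed the filter. Over 2536 genes these differed with an SD of 0.35 to 0.45 (log2) in the comparisons between pools, and of 0.54 in the difference between agonist effects. This SD holds no scatter between arrays or mice.

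Members, role groups, related genes and cell type markers were chosen with earlier results of these data known. The text names all measured members, and of each other list up to 4 genes with the largest difference, plus the checks Ppard and Gapdh. B2m, H2-K1, H2-D1, Zap70, Lyz2, Xbp1, Tnfrsf17 and the markers given as below the floor fall outside this rule and were named after their values were seen. Alternatives were 2 other scalings, 2 floors, 2 filters and 2 probe set rules. Computation was in Python 3.11.15 with pandas 2.3.3 and numpy 2.4.6, and was tested on simulated data.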

Additional observations from a re-analysis of the deposited data

Results flagged for a closer look

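The agonist effects had opposite signs in the 2 genotypes, and differed by at least 2-fold, for 5 members measured above the floor on all 4 arrays. The log2 difference, transgenic minus wild type, was 2.92 for Ido1, 1.52 for Ifit1, 1.29 for Usp18, 1.10 for Irf7 and -1.14 for Iigp1. With 1 pool per group this difference was not tested. The opposite sign rests on small values in 1 genotype for Usp18, Irf7, Ido1 and Iigp1. Usp18 was 0.024 in transgenic mice. Irf7 was 0.42 there, beside an SD between probe sets of 0.45 in that comparison. Ido1 was 0.52 there, from 68.1 on GW501516 and 47.4 on chow, and 0 with the floor at the 40th percentile. Iigp1 was 0.11 in wild type by the kept probe set and -0.0088 by the second, and the second thus had the same sign in both genotypes. For Ido1, Ifit1, Usp18 and Irf7 the wild-type chow pool was the highest of the 4, and for Iigp1 it was the transgenic chow pool.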

How the results depend on the processing

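No median of the list changed sign under the 8 alternatives. The median for GW501516 in wild type ranged from -0.62 to -0.58, in transgenic mice from -0.19 to -0.05, for the transgene on chow from -0.15 to -0.03 and on GW501516 from 0.06 to 0.14. The count of members at least 2-fold lower on GW501516 in wild type ranged from 4 to 6. In transgenic mice it was 3 with arrays shifted to one median, because Gbp3 and Iigp1 fell short of the threshold. For the transgene on chow it was 4 with the median shift and 4 with quantile normalization. For the transgene on GW501516 it was 2 with no filter, which adds Stat2, and 0 with the filter at the 60th percentile, which removes Oas2. The counts by the order of the arrays were added after seeing the data, and so were their alternatives and the marker sums without Zap70 or Ccr7. The counts with 1 chow pool at least 1.5-fold above each other pool ranged from 2 to 3 for transgenic mice and from 3 to 5 for wild type. The count with both GW501516 pools below both chow pools ranged from 13 to 15. The count with both transgenic pools above both wild-type pools was 3 under quantile normalization instead of 5. The count with wild type on GW501516 at least 1.5-fold above each other pool was 0 with the filter at the 60th percentile instead of 1. One member was at least 1.5-fold below each other pool in transgenic mice on chow with arrays shifted to one median (1 instead of 0), and 1 instead of 0 in transgenic mice on GW501516 with no filter. No paired analysis was possible because each group is 1 pool. Another scaling shifted the median of all genes by at most 0.09 on the log2 scale. Signals near the floor, as for Mx1, Mx2, Stat2 and the low pools of Ubd, limit what can be read from them.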
